A study of Homo sapiens with 6 samples.

Results

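The genes described here are the human enzymes of the glutathione, peroxiredoxin and thioredoxin systems, with superoxide dismutases, catalase, NQO1, HMOX1 and the regulators NFE2L2 and KEAP1. They were taken by gene symbol alone, and 50 of the 31785 rows of the deposited table carried such a symbol. Of these, 41 passed the filter on low values, a mean over the 6 libraries at least 1 above the lowest value of the table, which corresponds to 27.6 normalised reads. The other 9 were GPX2, GPX7, GSTA1, GSTA2, GSTM1, GSTM5, GSTO2, SOD3 and SRXN1, whose highest value in any library lay between 1.54 normalised reads for GSTA1 and 32.4 for SRXN1. A normalised read is a read divided by its library's size factor, so that libraries of unequal depth can be compared.

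The cells were D283 Med, an established line grown from a childhood medulloblastoma, a tumour of the cerebellum, kept in serum-containing medium. The study compared 3 libraries labelled as Musashi-1 knockdown with 3 libraries labelled WT, from total RNA, and asked what changes in the transcriptome when this RNA-binding protein of neural stem cells is reduced. The labels tell neither the means nor the duration of the knockdown, nor if a control construct was present in WT cells. They do not state that libraries with the same group name stem from different cultures either, and p-values therefore reflect the variation among these 6 libraries, which can include technical variation. In the table, 3 column names match the knockdown labels, while the remaining 3 use letters found in no label and were assigned to WT by elimination, with the number taken from the column name.

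Glutathione is a small thiol made by glutamate-cysteine ligase and glutathione synthetase and kept reduced by glutathione reductase. Glutathione peroxidases spend it to remove hydrogen peroxide and lipid peroxides, and glutathione transferases couple it to reactive compounds. Peroxiredoxins remove peroxides with thioredoxin as the electron donor, and thioredoxin is in turn reduced by the selenium-containing thioredoxin reductases at the expense of NADPH. Many of these genes are induced by the transcription factor NRF2, the product of NFE2L2, which KEAP1 holds in check and which binds the antioxidant response element as a dimer with a small MAF protein.

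To show what such control regions look like in these genes, promoter windows from RefSeq (GRCh38.p14) were searched on both strands for the 9 letters TGACNNNGC, the core of the antioxidant response element. A window held 250 bases before the first transcribed base and 50 bases from it onwards, and positions are counted from 1 at that base, with -1 the base before it. A window was at hand for 41 of the 50 genes, and 10 of them (24.4%) had at least 1 match, against 16.1% of 27305 genes in the whole RefSeq table. These 41 genes had 57 windows, and 11 of those windows (19.3%) held a match, against 13.3% of 35116 windows in the whole RefSeq table. Printed here are 4 genes with a match, with the matching letters in capitals. They are the gene that passed the test, the most abundant soluble transferase, and the NRF2 targets GCLM and TXNRD1. The first window with a match is shown for each. MGST1 (chr12:16346865-16347164, plus strand) was the gene that passed the test, and its match lies from 31 to 39, after the start, in 1 of its 3 windows. GSTP1 (chr11:67583562-67583861, plus strand) has its match from -66 to -58. GCLM (chr1:93909381-93909680, minus strand) has it from -34 to -26 on the opposite strand. TXNRD1 (chr12:104215529-104215828, plus strand) has a match from -99 to -91 and another from -8 to 1 on the opposite strand, and its other window (chr12:104286782-104287081, plus strand), not printed, has 1 from -102 to -94 on the opposite strand.
MGST1: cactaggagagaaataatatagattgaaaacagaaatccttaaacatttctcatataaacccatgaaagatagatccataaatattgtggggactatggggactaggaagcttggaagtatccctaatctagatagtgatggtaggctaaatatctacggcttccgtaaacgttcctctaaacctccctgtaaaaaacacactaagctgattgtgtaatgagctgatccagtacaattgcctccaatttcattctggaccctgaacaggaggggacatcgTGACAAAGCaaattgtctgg
GSTP1: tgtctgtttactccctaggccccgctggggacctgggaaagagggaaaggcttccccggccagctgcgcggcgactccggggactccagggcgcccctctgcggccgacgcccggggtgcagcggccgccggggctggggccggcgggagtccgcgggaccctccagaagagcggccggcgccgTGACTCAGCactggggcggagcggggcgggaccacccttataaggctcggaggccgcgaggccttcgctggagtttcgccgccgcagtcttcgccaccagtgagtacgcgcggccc
GCLM: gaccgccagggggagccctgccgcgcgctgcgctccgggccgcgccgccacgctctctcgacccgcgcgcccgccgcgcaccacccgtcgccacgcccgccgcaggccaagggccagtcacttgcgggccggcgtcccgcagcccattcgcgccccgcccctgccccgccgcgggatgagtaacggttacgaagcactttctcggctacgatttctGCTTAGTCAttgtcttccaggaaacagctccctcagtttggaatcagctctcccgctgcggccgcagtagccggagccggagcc
TXNRD1: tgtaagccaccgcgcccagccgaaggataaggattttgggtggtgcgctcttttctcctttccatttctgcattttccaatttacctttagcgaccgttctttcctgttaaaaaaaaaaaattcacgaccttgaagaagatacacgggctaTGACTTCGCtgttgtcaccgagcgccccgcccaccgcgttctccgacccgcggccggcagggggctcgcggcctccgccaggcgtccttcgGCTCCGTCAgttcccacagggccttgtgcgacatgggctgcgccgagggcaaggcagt
The differences of these genes between knockdown and WT libraries were 0.69 for MGST1, 0.38 for GSTP1, 0.02 for GCLM and -0.18 for TXNRD1 on the log2 scale. Among the 32 measured genes with a window, 7 had a match, and the other 3 of them were GSTA4, GSTO1 and KEAP1. A match is only a description of the letters in the window.

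Depth ranged over 24442276, 18895997 and 23369283 reads in the knockdown libraries and 17299671, 38790342 and 29173018 reads in the WT libraries. The 50 genes took up 0.917 to 0.994% of the reads of the knockdown libraries and 0.856 to 0.990% of those of the WT libraries. MSI1, the targeted gene, had 1385, 1197 and 1281 normalised reads in knockdown libraries, against 1586, 1572 and 1378 in WT libraries. Its mean in knockdown was 85.2% of that in WT, the groups overlapped, and the difference of -0.21 (SE 0.12) gave an adjusted p of 0.304 (limma), above the threshold, so the group names are those of the labels. Of 12 marker genes of Group 3 and Group 4 medulloblastoma, 9 were measured, among them OTX2 with 27356 to 34344 normalised reads in knockdown and 19886 to 26228 in WT libraries, whereas EOMES, LMX1A and BARHL1 had at most 19.6. Of the 9 measured markers, 3 passed the test (33.3%, against 4.1% of all genes), with UNCX higher in knockdown (difference 1.52, limma adjusted p = 0.00672), ZIC2 higher (difference 0.76, limma adjusted p = 0.023) and NPR3 lower (difference -0.76, limma adjusted p = 0.0437). OTX2, with a difference of 0.36, NRL, with -0.60, and CRX, with -0.27, were not called (limma adjusted p from 0.229 for OTX2 to 0.304 for CRX). MYC, higher without overlap at 0.48 (limma adjusted p = 0.0976), IMPG2 at 0.13 (limma adjusted p = 0.894) and ZIC1 were not called either. Blood and immune markers summed to at most 2.15 normalised reads in knockdown and 13.8 in WT libraries. GFAP, AQP4, ALDH1L1 and MBP, markers of astrocytes and oligodendrocytes, together reached at most 11.3 normalised reads in knockdown and 17.7 in WT libraries. Fibroblast markers summed to 716 to 1061 normalised reads in knockdown and 993 to 1304 in WT libraries, most of it PDGFRB, and endothelial markers to 159.9 to 313 in knockdown and 162 to 251 in WT libraries. Whether any of these levels bears on the redox genes was not tested. In bulk RNA a change in the share of a kind of cell and a change of RNA per cell cannot be told apart.

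A single redox gene passed the test. MGST1, which encodes a membrane-bound glutathione transferase, was 1.66-fold higher in knockdown than in WT libraries. No redox gene was significantly lower. Differences are given as knockdown minus WT on the stabilised log2 scale, which understates the change of weakly expressed genes, and a gene was called when its p from limma, adjusted by Benjamini-Hochberg over 13558 measured genes, was under 0.05. By this rule 1 of 41 redox genes was called (2.44%), against 4.1% of all genes, with 1.78% called as higher and 2.32% as lower in knockdown. At an unadjusted p under 0.05 there were 12 of 41 (29.3%), against 22.0% of all genes. All 3 knockdown libraries lay above all 3 WT libraries for 11 redox genes (26.8%) and below them for 3, against 14.1% and 13.6% of all genes, and the groups did not overlap for 34.1% of redox genes, against 27.8% of all genes. The shares of called genes and of genes past an unadjusted p were thus near those of all genes.

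The direction was less even than among all genes. The difference was above 0 for 32 of 41 redox genes (78.0%), against 51.0% of all genes, with a median of 0.12, against 0.01 for all genes. It was above 0 for 31 of 41 after quantile or median scaling and for 29 to 32 when a library was left out. These counts carry no test. The count was 29 of 41 without WT library 3, and 30 of 40 after a regression on transcript length and GC content. WT library 3 was low for these genes, and most of their transcripts are short, as described further below. The median difference by role was highest in the microsomal glutathione transferases at 0.49, followed by the peroxiredoxins at 0.28, the glutaredoxins at 0.23 and the soluble glutathione transferases at 0.20. It was 0.11 for the genes of glutathione synthesis and reduction, for the thioredoxins with their reductases and for the superoxide dismutases with catalase, 0.08 for the glutathione peroxidases and -0.04 for the regulators with NQO1 and HMOX1.

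**Figure D1:**
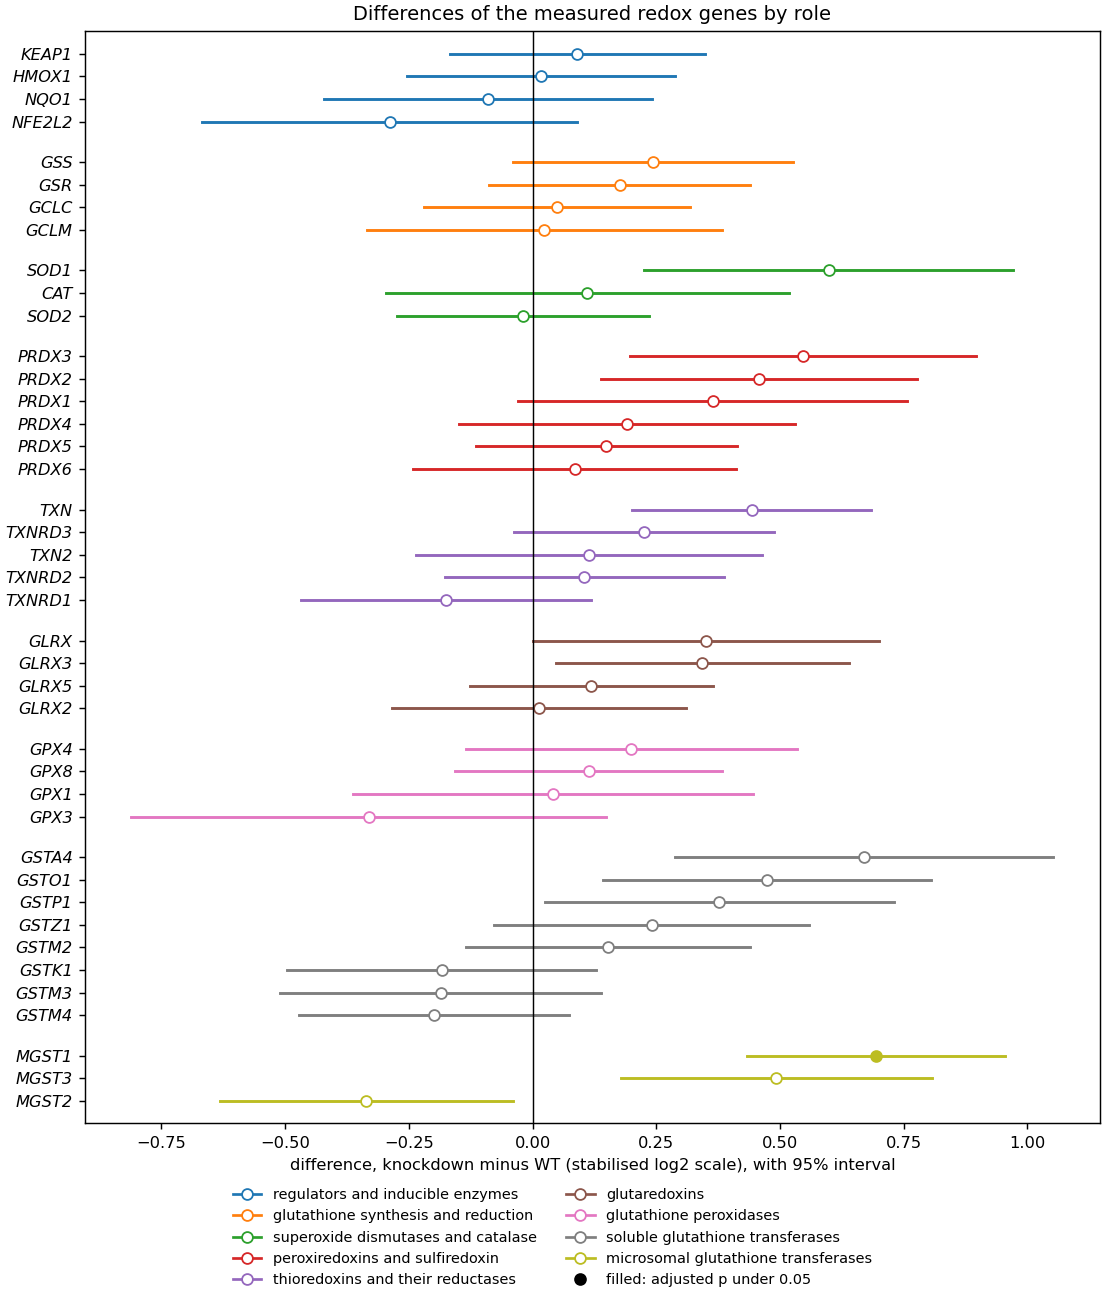
Difference between knockdown and WT (horizontal axis, stabilised log2 scale) of the 41 measured redox genes, grouped by role, with bars for the 95% interval from limma over 3 libraries per group. MGST1, at 0.69, is the 1 filled point (adjusted p under 0.05), and 32 of the 41 points lie to the right of 0.

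The 3 microsomal glutathione transferases are integral membrane proteins that conjugate glutathione or reduce lipid peroxides with it. All 3 had groups that did not overlap, 2 of them with knockdown above WT and 1 below. Among all genes the groups did not overlap for 27.8%. MGST1 (chr12:16347142-16609259, plus strand, protein coding, GRCh38, GENCODE 29) had 3025, 3031 and 3624 normalised reads in knockdown libraries, against 1821, 2014 and 2007 in WT libraries. The lowest knockdown library was thus above the highest WT library by a wide margin, and the means were 3226 ± 344 in knockdown and 1948 ± 109 in WT (SD, n = 3 each). The difference was 0.69 (SE 0.12, 95% interval 0.43 to 0.95, limma adjusted p = 0.0148). It was called in 15 of 17 alternative settings. Without the first knockdown library it was 0.74 with an adjusted p of 0.0627, and without the third it was 0.61 with an adjusted p of 0.0771.

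MGST3, an enzyme of the same family with glutathione-dependent peroxidase activity, had 1464, 1275 and 1302 normalised reads in knockdown libraries, against 876, 1143 and 788 in WT libraries. All knockdown libraries were above all WT libraries, and the difference of 0.49 (SE 0.14) missed the threshold (limma adjusted p = 0.0804). MGST2, which can make leukotriene C4, had 193, 171 and 174 normalised reads in knockdown libraries, against 214, 292 and 249 in WT libraries. Here the knockdown libraries were the lower ones without overlap, and the difference of -0.34 (SE 0.13) missed it too (limma adjusted p = 0.179). Exons of MGST2 share 252 bases with MAML3 on the other strand, and the sources used here do not say if reads were counted by strand. Per kilobase of annotated exon, MGST2 made up 8.69 ± 0.82% of the family's level in knockdown and 17.4 ± 1.2% in WT libraries (SD, n = 3 each), and MGST1 made up 66.6 ± 3.3% in knockdown and 58.1 ± 3.4% in WT. Annotated exon length counts all exons of a gene, 7.44 kilobases for MGST1 and 3.182 for MGST2. Their longest transcripts have 2152 and 1780 bases, so such shares depend on the length used.

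**Figure D2:**
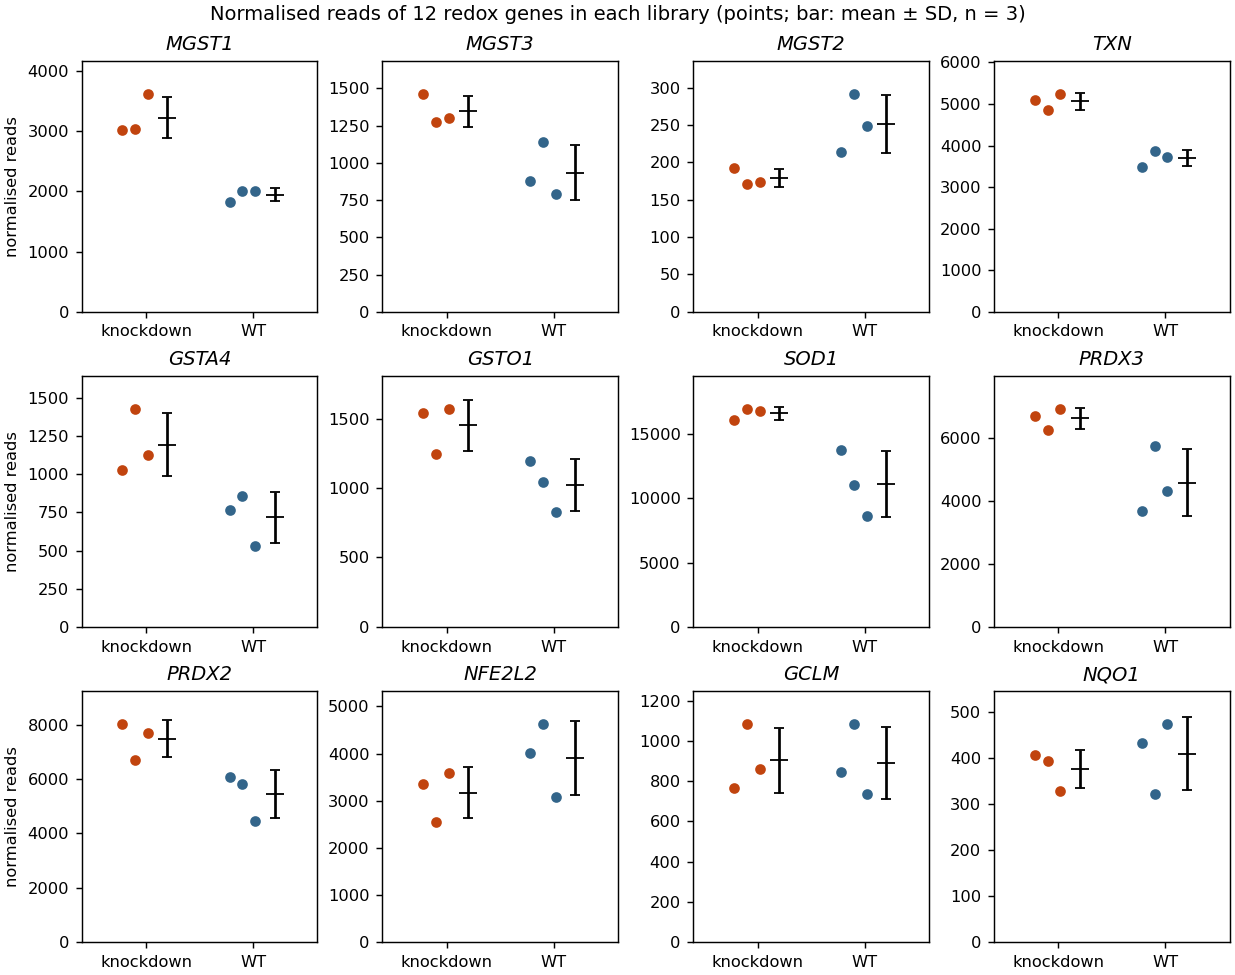
Normalised reads (vertical axes, each from 0) of 12 redox genes in each of the 3 knockdown libraries (left, orange) and the 3 WT libraries (right, blue), with mean and SD beside the points. MGST1 reads 3025 to 3624 in knockdown and 1821 to 2014 in WT, TXN is separated in the same way, and NFE2L2, GCLM and NQO1 overlap.

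Thioredoxin itself came closest to the threshold. TXN (chr9:110243811-110256640, minus strand), the cytosolic thioredoxin that reduces peroxiredoxins and ribonucleotide reductase, had 5093, 4844 and 5244 normalised reads in knockdown libraries, against 3483, 3876 and 3725 in WT libraries. The groups were separated and the spread within each was small, with means of 5060.3 ± 202 in knockdown and 3695 ± 198 in WT (SD, n = 3 each), a 1.37-fold ratio. The difference was 0.44 (SE 0.11, 95% interval 0.20 to 0.68), and its adjusted p of 0.0501 (limma) just missed the threshold. It was called in 4 of 17 alternatives, with adjusted p-values from 0.0203 with library weights to 0.212 without the third knockdown library.

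TXNRD1, the cytosolic selenoenzyme that reduces thioredoxin, had 20229, 19804 and 19958 normalised reads in knockdown libraries, against 22686, 24151 and 21044 in WT libraries. All knockdown libraries were below all WT libraries, by 0.18 on the log2 scale (SE 0.13), and the difference was not called (limma adjusted p = 0.475). TXN and its reductase thus lay on opposite sides of 0, neither of them past the threshold. TXNRD1 made up 95.3 ± 0.3% of the level of the 3 reductases per kilobase of exon in knockdown and 96.3 ± 0.2% in WT libraries (SD, n = 3 each). The mitochondrial TXN2 and TXNRD2 and the testis-rich TXNRD3 had differences between 0.11 and 0.22, none of which passed the test.

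Peroxiredoxins, the thiol peroxidases that draw on thioredoxin, had differences above 0 in 6 of 6 measured genes, from 0.09 to 0.55, except that PRDX6 was at -0.02 after quantile normalisation, and 0 of them passed the test (limma). At an unadjusted p under 0.05 there were 2, and 3 were above WT without overlap. PRDX3, the mitochondrial peroxiredoxin, had 6719, 6280.1 and 6938 normalised reads in knockdown libraries, against 3677, 5769 and 4321 in WT libraries. The knockdown libraries were all higher and close together while the WT libraries were spread out, and the difference was 0.55 (SE 0.16, limma adjusted p = 0.0812). It was called in 1 alternative, without the second WT library, at 0.72 with an adjusted p of 0.0394. PRDX2, abundant in the cytosol, had 8039.7, 6721 and 7717 normalised reads in knockdown libraries, against 6098, 5814 and 4465 in WT libraries. Again the groups did not overlap, and the difference was 0.46 (SE 0.14, limma adjusted p = 0.104).

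PRDX1 had the highest level of the redox genes per kilobase of annotated exon in WT, a rank that can change with the length used. It had 33579, 38592 and 33699 normalised reads in knockdown libraries, against 30276, 31207 and 21604 in WT libraries. The groups were apart, but the third WT library was far below the others, and the difference was 0.36 (SE 0.18, limma adjusted p = 0.26) and 0.20 without that library. Its exons share 379 bases with MMACHC on the other strand, and those of PRDX2 share 296 bases with AC018761.2 on the other strand. PRDX4, the peroxiredoxin of the endoplasmic reticulum, and PRDX6, which also has phospholipase activity and uses glutathione, overlapped between groups. PRDX4 had 6366, 5589.7 and 7012 normalised reads in knockdown libraries, against 6639, 5494 and 4560.1 in WT libraries. PRDX6 had 28122, 24058 and 29771 in knockdown libraries, against 26235, 26685 and 24074 in WT libraries, with a difference of 0.09 (SE 0.15, limma adjusted p = 0.782). SRXN1, which repairs over-oxidised peroxiredoxins and is a known NRF2 target, stayed below the filter. Of its 2698 exon bases, 2292 are shared with AL121758.1 on the same strand, so how reads were divided between these genes is uncertain. The low values of SRXN1 therefore do not by themselves show low expression. Rows named as pseudogenes of PRDX1, PRDX2 and PRDX3 reached at most 37.4 normalised reads.

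Superoxide dismutases turn superoxide into hydrogen peroxide, which catalase breaks down. SOD1 (chr21:31659622-31668931, plus strand), the copper and zinc enzyme of the cytosol, had 16057, 16957 and 16804 normalised reads in knockdown libraries, against 13747, 11019 and 8602 in WT libraries. Each knockdown library was above each WT library, with means of 16606 ± 481 in knockdown and 11123 ± 2574 in WT (SD, n = 3 each), and the WT libraries spread over a far wider range. The difference of 0.60 (SE 0.17, 95% interval 0.23 to 0.97) missed the threshold (limma adjusted p = 0.0762). SOD1 was called in 4 of 17 alternatives (adjusted p from 0.0188 with library weights to 0.223 over all of them), and without the third WT library its difference was 0.43. The other 2 measured genes lay near 0. SOD2, the mitochondrial manganese enzyme, had 2512, 2629 and 2467 normalised reads in knockdown libraries, against 2537, 2862 and 2338 in WT libraries, a difference of -0.02 with a 95% interval from -0.27 to 0.23. CAT had 1798, 1342 and 1601 in knockdown libraries, against 1731, 1666 and 1042 in WT libraries. Its difference was 0.11 (SE 0.18) and became -0.11 without the third WT library.

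Among the soluble glutathione transferases, 8 of 13 were measured, 5 with a difference above 0 and 3 below, and 0 passed the test (limma). At an unadjusted p under 0.05 there were 3 (37.5%), against 22.0% of all genes. GSTA4 (chr6:52977948-52995378, minus strand), which conjugates the lipid peroxidation product 4-hydroxynonenal, had 1029, 1427 and 1125 normalised reads in knockdown libraries, against 763, 855 and 533 in WT libraries. The groups did not overlap and the ratio was 1.67-fold, close to that of MGST1, but the spread was wider, and the difference of 0.67 (SE 0.17, 95% interval 0.29 to 1.05) missed the threshold (limma adjusted p = 0.0585). It was called in 2 alternatives, with no filter on low values (adjusted p = 0.0315) and with library weights (adjusted p = 0.0411). GSTO1, an omega-class enzyme with thioltransferase activity, had 1544, 1242 and 1571 normalised reads in knockdown libraries, against 1196, 1043 and 826 in WT libraries, apart but with a difference of 0.47 (SE 0.15) that was not called (limma adjusted p = 0.104).

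GSTP1, the pi-class transferase often abundant in tumours, had 18710.3, 13391 and 17702 normalised reads in knockdown libraries, against 13109, 13656 and 11240.2 in WT libraries. The second knockdown library lay among the WT libraries, and the difference was 0.38 (SE 0.16, limma adjusted p = 0.198). GSTP1 dominated the soluble transferases, with 82.2 ± 2.2% of their level per kilobase of exon in knockdown and 82.5 ± 1.0% in WT libraries (SD, n = 3 each). The mu-class genes GSTM2, GSTM3 and GSTM4, the kappa-class GSTK1 and the zeta-class GSTZ1 had differences from -0.20 to 0.24. GSTM4, named here after its values were seen, was the third redox gene besides MGST2 and TXNRD1 whose knockdown libraries were all below the WT libraries. Exons of GSTM1, GSTM2 and GSTM4 overlap on the same strand, so how the reads were divided among them is uncertain.

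The glutathione peroxidases, most of them selenoproteins, were led by GPX3, the secreted plasma form. GPX3 had 45553, 30962 and 45766 normalised reads in knockdown libraries, against 46761, 63837 and 43103 in WT libraries. The second library of each group stood apart, low in knockdown and high in WT, the groups overlapped, and the difference was -0.33 (SE 0.22, limma adjusted p = 0.407). It was -0.14 without knockdown library 2, -0.16 without WT library 2 and -0.51 after quantile normalisation. GPX4, which reduces lipid hydroperoxides in membranes and restrains ferroptosis, had 8156, 6001 and 7369 normalised reads in knockdown libraries, against 7252, 5711 and 5705 in WT libraries, a difference of 0.20 (SE 0.15, limma adjusted p = 0.474). GPX1, the cytosolic enzyme, had 3925, 2373 and 3577 in knockdown libraries, against 2653, 3367 and 3419 in WT libraries. Its difference of 0.04 (SE 0.18) changed sign in 4 alternatives. A pseudogene row, GPX1P1, reached 149 normalised reads. As a share of the family's level per kilobase of exon, GPX3 took 68.3 ± 1.3% in knockdown and 74.6 ± 4.0% in WT libraries (SD, n = 3 each), and GPX4 took 19.0 ± 1.4% in knockdown and 14.6 ± 3.3% in WT. The 6 measured selenoproteins among the redox genes, 4 of them with a difference above 0, had a median difference of 0.07.

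Glutaredoxins are small glutathione-dependent oxidoreductases, and GLRX3 and GLRX5 also take part in handling iron-sulfur clusters. All 4 measured genes had a difference above 0, from 0.01 for GLRX2, which changed sign in 6 of 17 alternatives and reached -0.08, to 0.35, and 0 passed the test (limma; 2 at an unadjusted p under 0.05). GLRX, the weakest of them, had 129.5, 129.5 and 102 normalised reads in knockdown libraries, against 98.1, 90.2 and 49.1 in WT libraries. The groups did not overlap, though by few reads, and the difference was 0.35 (SE 0.16, limma adjusted p = 0.226). It was 0.20 without the third WT library and 0.65 on the scale of log2(normalised read + 1).

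The 4 enzymes that make and recycle glutathione gave 0 calls (limma; 0 at an unadjusted p under 0.05). GCLC, the catalytic subunit of the rate-limiting ligase, had 3252, 3973 and 3748 normalised reads in knockdown libraries, against 3726, 3631 and 3222 in WT libraries, a difference of 0.05 with a 95% interval from -0.22 to 0.32. GCLM, its modifier subunit, had 768, 1084 and 858 in knockdown libraries, against 846, 1085 and 736 in WT libraries, a difference of 0.02 with an interval from -0.34 to 0.38. In both cases the groups overlapped, and both signs depended on the setting. Exons of GCLC share 529 bases with AL033397.1 on the same strand. GSS, glutathione synthetase, had 2949, 2504 and 3135 normalised reads in knockdown libraries, against 2646, 2405 and 2147 in WT libraries, a difference of 0.24 (SE 0.13, limma adjusted p = 0.292). GSR, glutathione reductase, had 2843, 2799 and 2679 in knockdown libraries, against 2808, 2283 and 2267 in WT libraries, a difference of 0.18 (SE 0.12, limma adjusted p = 0.421). For both, 1 WT library lay within the range of the knockdown libraries.

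NRF2, its inhibitor and its classical reporter genes gave 0 calls (limma; 0 at an unadjusted p under 0.05). NFE2L2 had 3356, 2553 and 3588 normalised reads in knockdown libraries, against 4004, 4629 and 3081 in WT libraries, with a difference of -0.29 (SE 0.17, limma adjusted p = 0.354). WT library 3 was within the knockdown range, and the difference was -0.45 without it, -0.15 without knockdown library 2 and -0.16 without WT library 2. Exons of NFE2L2 share 1054 bases with AC019080.1 on the same strand, and those of NQO1 575 bases with AC092115.2 on the other. KEAP1, the adaptor that sends NRF2 to degradation, had 4958, 4830.2 and 4392 in knockdown libraries, against 4625, 4650.0 and 4034 in WT libraries, a difference of 0.09 with a 95% interval from -0.17 to 0.35. NQO1, a quinone reductase, had 407, 395 and 328 in knockdown libraries, against 433, 322 and 475 in WT libraries. HMOX1, which degrades haem, had 247, 248 and 232 in knockdown libraries, against 262, 225 and 229 in WT libraries. Their differences were -0.09, with an interval from -0.42 to 0.24, and 0.02, with an interval from -0.25 to 0.29. The intervals of NQO1, HMOX1, GCLC and GCLM, which are among the NRF2 targets, all held 0 and ended at 0.38 or less. They do not stand for all redox genes. The interval was 0.20 to 0.68 for TXN, 0.02 to 0.73 for GSTP1 and -0.47 to 0.12 for TXNRD1. Whether NRF2 activity differed between the groups was not tested.

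Levels spanned a wide range. Per kilobase of annotated exon, PRDX1 had 23187 ± 1879 normalised reads in knockdown and 18197 ± 3480 in WT libraries, GPX3 had 12887 ± 2683 in knockdown and 16198 ± 3499 in WT, and PRDX6 had 11541 ± 1242 in knockdown and 10843 ± 590 in WT (SD, n = 3 each). The ranges of GPX3 and PRDX6 overlapped in knockdown but not in WT libraries. Next in WT came GSTP1, SOD1, PRDX5, TXNRD1, TXN, GPX4, PRDX4 and PRDX2, and the WT ranges of each neighbouring pair among these overlapped. MGST1, in rank 25 in WT, had 434 ± 46 normalised reads per kilobase in knockdown and 262 ± 15 in WT libraries. The least expressed of the measured genes per kilobase was GLRX. SOD2 was left out of this order because 2 annotated genes bear its name. The order, its top rank included, can change with the length used. All annotated exons together span 3.163 kilobases for GPX3 and 1.522 for PRDX1, while their longest transcripts have 1757 and 1234 bases.

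**Figure D3:**
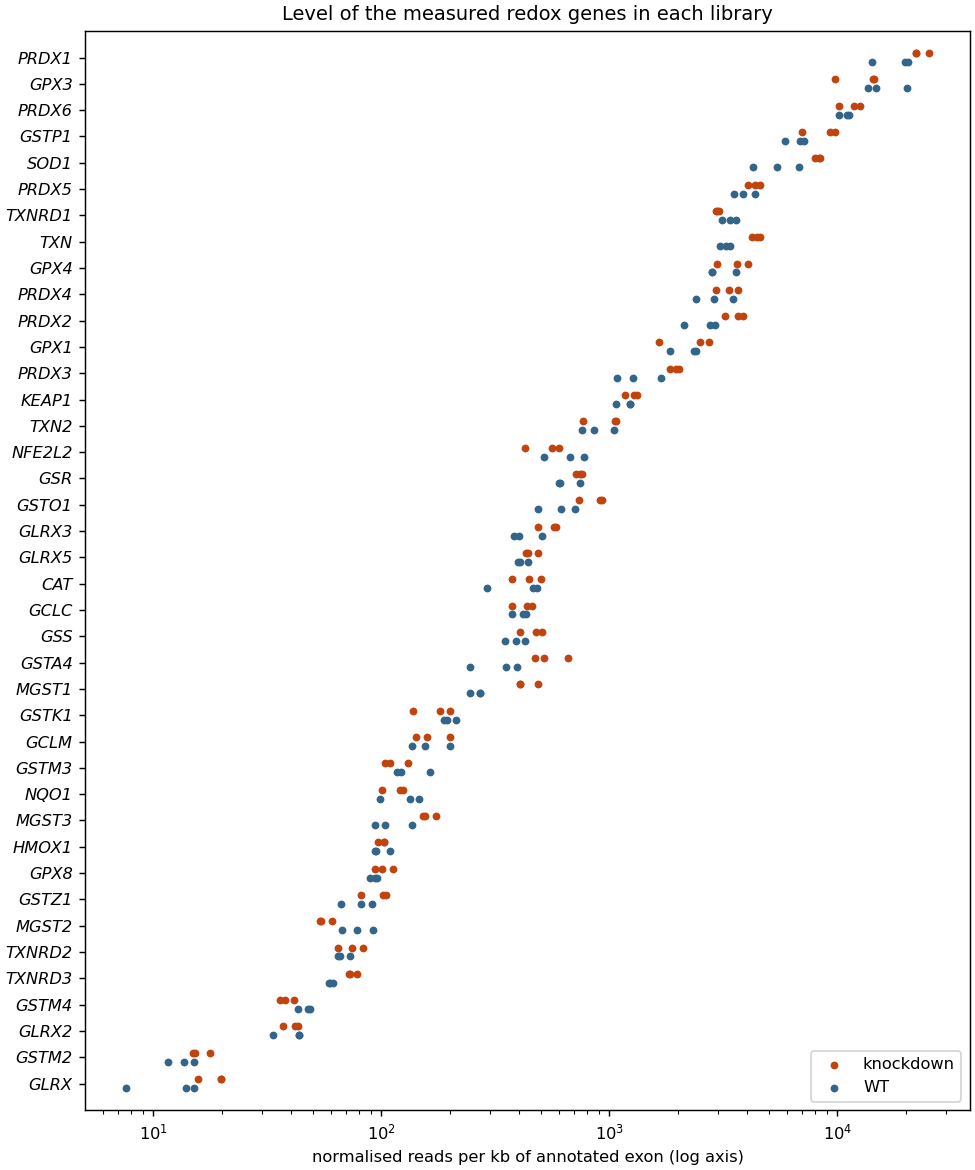
Level of 40 measured redox genes in each library, as normalised reads per kilobase of annotated exon (horizontal log axis), in order of the WT mean, with knockdown libraries in orange above WT libraries in blue. PRDX1 is at the top and GLRX at the bottom, and MGST1 is in rank 25 of WT.

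The libraries did not contribute evenly. Relative to each gene's mean over the 6 libraries, the median of the 41 redox genes was 0.12, 0.02 and 0.12 in knockdown libraries 1, 2 and 3, and 0.01, 0.01 and -0.19 in WT libraries 1, 2 and 3. The third WT library was the lowest of the 6 for 21 of 41 redox genes, whereas it was the lowest for 24.4% of all genes. All genes had a median deviation of -0.02 in that library. Knockdown library 1 was the lowest for 0 of the 41. The median difference of the redox genes, 0.12 over all libraries, was 0.10 without the third WT library, 0.22 without the first WT library and 0.19 without the second knockdown library, with 29 of 41 above 0 in each case. MGST1 had its lowest value in WT library 1 and a difference of 0.72 without WT library 3.

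**Figure D4:**
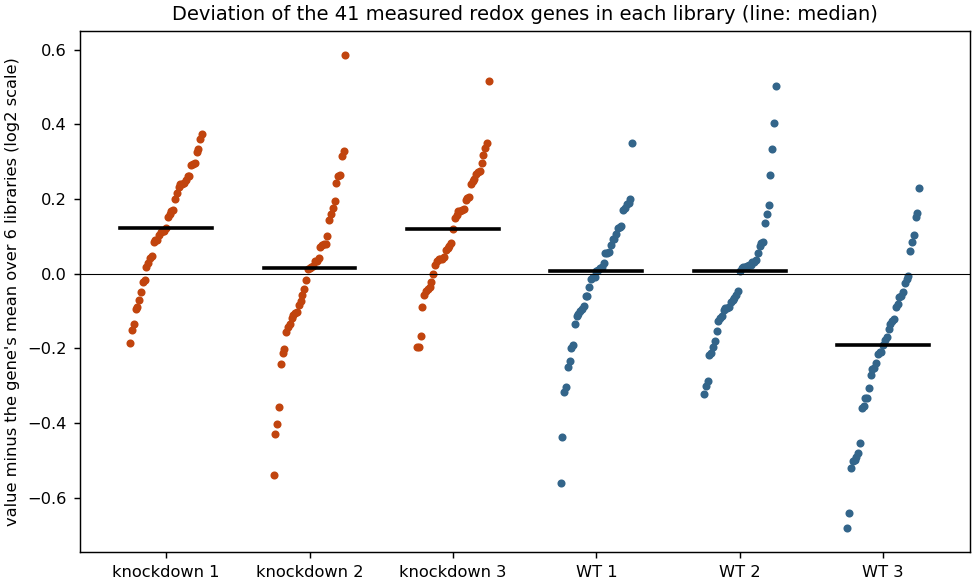
Deviation of each of the 41 measured redox genes from its own mean over the 6 libraries (vertical axis, stabilised log2 scale), by library, with a line at the median. The median lies at 0.12, 0.02 and 0.12 in the knockdown libraries and at 0.01, 0.01 and -0.19 in the WT libraries.

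Differences also moved with transcript length. When 13370 measured genes with a known length were divided into 5 groups of about equal size, from the shortest to the longest transcripts, the median difference was 0.10, 0.03, -0.01, -0.01 and -0.08. The redox genes were short, with a median longest transcript of 2497 bases, against 3577.5 for all genes, and 17, 8, 10, 5 and 0 of 40 fell in these groups. In the group of shortest transcripts, 65.2% of all genes had a difference above 0. From the shortest group on, the median difference of the redox genes was 0.19, 0.10, 0.15 and 0.02 in the groups that held any. After each library had been regressed on transcript length and GC content, an alternative chosen after seeing the data, the median difference of the 40 redox genes was 0.09, against 0.13 before, and 30 of 40 were above 0. MGST1 was still called, at 0.66 (SE 0.11, limma adjusted p = 0.0152), and TXN stood at 0.34 (SE 0.10, limma adjusted p = 0.0916). Beyond this the part of transcript length in the direction of these genes was not tested.

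**Figure D5:**
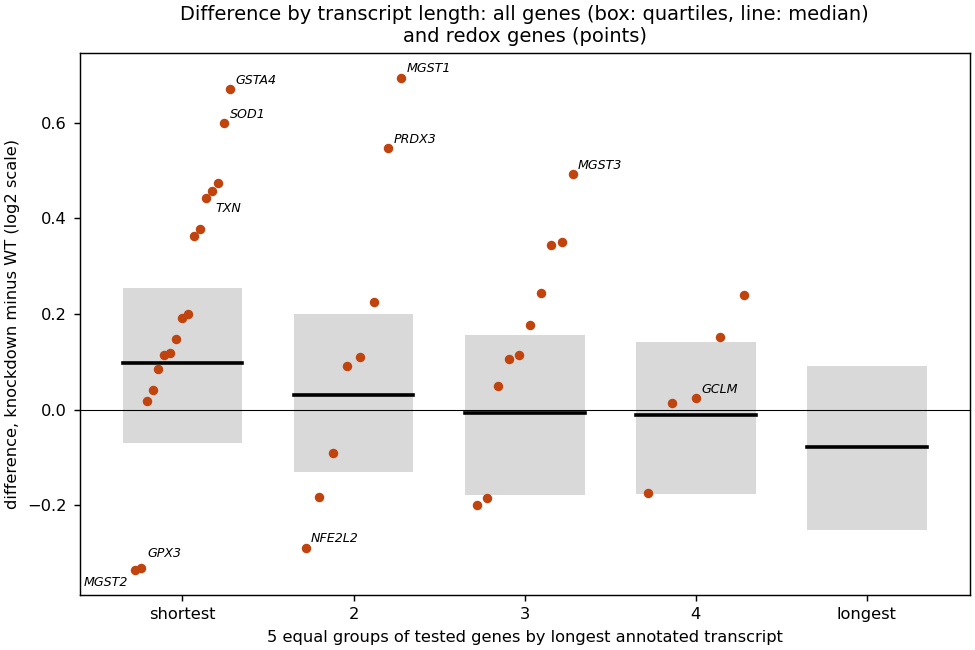
Difference between knockdown and WT (vertical axis, stabilised log2 scale) in 5 groups of genes by transcript length (horizontal axis), with grey boxes for the quartiles and black lines for the median of all genes, and points for the 40 redox genes with a known length. The median of all genes lies at 0.10 for the shortest transcripts and -0.08 for the longest, a group that holds 0 redox genes.

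Neighbouring pathways were described by 7 further lists with 103 measured genes in all. Of these 103 genes, 22 (21.4%) had an unadjusted p under 0.05, against 22.0% of all genes. Their differences split evenly, 51 above 0 and 52 below, with a median of -0.002, and 1 gene was called (0.971%), against 4.1% of all genes. That gene was NFE2L1 among the regulators of the NRF2 pathway, a transcription factor related to NRF2 that drives proteasome genes. NFE2L1 had 9405, 7750.1 and 10305 normalised reads in knockdown libraries, against 15410.4, 16207 and 15474 in WT libraries. It fell to 58.3% of the WT mean without overlap, with a difference of -0.78 (SE 0.14, limma adjusted p = 0.0168). The call was lost in 5 alternatives, among them without each knockdown library in turn (adjusted p from 0.0516 to 0.0839) and without the second WT library (0.0559). Of the 12 genes of that list, 4 had a difference above 0 and 1 was called as lower, 0 as higher. At an unadjusted p under 0.05 there were 4 (33.3%), and the groups did not overlap for 41.7%, against 22.0% and 27.8% of all genes.

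Other NRF2 targets gave no common direction, with 8 of 20 measured genes above 0, a median of -0.04 and 0 called (5 at an unadjusted p under 0.05). Transketolase, TKT, had 15971, 14746 and 16368 normalised reads in knockdown libraries, against 12205, 11148 and 10119 in WT libraries, apart but not called (difference 0.49, limma adjusted p = 0.0633). PGD, of the pentose phosphate pathway, had 13565, 11374 and 12738 in knockdown libraries, against 10669, 9212 and 5505 in WT libraries (difference 0.61, limma adjusted p = 0.134). PGD also counts among the genes of NADPH supply, NADPH being the electron source of thioredoxin and glutathione reductases. In that list 9 of 12 measured genes were above 0, with a median of 0.14 and 0 called (5 at an unadjusted p under 0.05). IDH2, the mitochondrial NADP-dependent isocitrate dehydrogenase, had 690.1, 709 and 695 normalised reads in knockdown libraries, against 567, 456 and 279 in WT libraries (difference 0.62, limma adjusted p = 0.0913). MTHFD2, of mitochondrial folate metabolism, differed by 0.44 (limma adjusted p = 0.118).

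Genes of glutathione supply and breakdown leaned the other way, with 6 of 18 above 0, a median of -0.13 and 0 called (3 at an unadjusted p under 0.05). The genes of that list with the smallest p-values, GGCT and ESD, differed by 0.35 and 0.30. An unadjusted p under 0.05 was seen in 16.7% of this list, against 22.0% of all genes. In the following 3 lists it was seen in 6.25, 16.7 and 23.5%. Other thioredoxin-fold proteins had 9 of 16 above 0, a median of 0.005 and 0 called (1 at an unadjusted p under 0.05, TXNDC17 at a difference of 0.32). The selenocysteine machinery with other selenoproteins had 9 of 18 above 0, a median of -0.003 and 0 called (3 at an unadjusted p under 0.05). SELENOS, a selenoprotein of the endoplasmic reticulum, had 317, 317 and 335 normalised reads in knockdown libraries, against 452, 448 and 512 in WT libraries (difference -0.43, limma adjusted p = 0.0724). Other antioxidant and repair enzymes had 11 of 17 above 0, a median of 0.10 and 0 called (4 at an unadjusted p under 0.05). In that list SESN3, a sestrin, had 3846, 5349.5 and 4625 normalised reads in knockdown libraries, against 6202, 10862 and 6967 in WT libraries (difference -0.75, limma adjusted p = 0.0665). MSRB3, a methionine sulfoxide reductase, differed by -0.48 (limma adjusted p = 0.0839).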

How the data were processed

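RNA sequencing of 3 knockdown and 3 WT libraries of D283 Med cells gave the deposited table, which holds 1 log2 value per gene and library, normalised and variance-stabilised by the authors, going by the name of the table and its values. The submitters' processing notes name STAR, DESeq, CASAVA 1.8.2, FastQC, Trim Galore and MultiQC as tools, and GRCh38 as the build. Not given in the sources used here are the read counter, its annotation, its use of strand, filters, and any selection of polyadenylated RNA.

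The lowest value, 5.79, marks genes with 0 reads. The stabilising function was inverted (offset 55.2), and 1 size factor per library turned 100% of the values into whole reads within a tolerance of 0.01, which gave depth and normalised reads. All 6 columns were given a library. Rows with a mean at least 1 above the lowest value were kept, 13558 of 31785. Differences were tested on the deposited values with limma 3.58.1 in R 4.3.3 (linear model, empirical Bayes with a variance trend, two-sided, Benjamini-Hochberg over all kept rows). With 3 against 3 libraries, an exact permutation p is at least 0.1, so that test was not used. The fit was checked on simulated data.

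Values in each library are given for genes that were called, that had an unadjusted p under 0.05 without overlap, that were among the 12 highest by mean reads, or that are regulators, rate-limiting enzymes or core nodes. A marker gene of the glial list is not reported here. Of each further list, up to 4 called genes or else the 2 with the smallest p are named. The genes, the lists and the rule were chosen with earlier results of these data known. Exon and transcript lengths and coordinates came from GENCODE 29, matched by symbol, and promoter sequences from RefSeq. Alternatives were a stricter and no filter, quantile and median scaling, other variance models, library weights, log2(normalised read + 1), voom on the recovered reads, a replicate block, leaving out each library, and a regression on length and GC content, which was chosen after seeing the data.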

Additional observations from a re-analysis of the deposited data

How the results depend on the processing

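Of the 41 measured redox genes, 32 kept their direction in every alternative run for them, which were 17, or 16 for GLRX and SOD2. The count of called redox genes, 1 in the fit as reported, was 2 with the stricter filter, 2 without a filter, 3 after quantile normalisation, 2 after median scaling, 7 with library weights, 2 with voom, and 0 to 2 when a library was left out. In that order, up to voom, 5.0, 4.0, 7.32, 4.88, 17.1 and 4.88% of redox genes were called. Among all genes the shares were 4.47, 2.07, 4.52, 4.47, 8.95 and 4.03% in the same settings. With a library left out, 0 to 4.88% of redox genes were called, against 0.413 to 5.35% of all genes. The 7 with library weights were MGST1, TXN, SOD1, GSTO1, PRDX2, GLRX3 and GSTA4. The call of MGST1 was lost without knockdown library 1 or 3. Over all genes the count of 556 became 1213 with library weights and 221 with the replicate block, and ranged over 56 to 726 when a library was left out, 56 without knockdown library 1, 92 without knockdown library 3, 126 without knockdown library 2 and 204 without WT library 2. In the 7 further lists the 1 call became 2 without a filter, 2 after quantile normalisation, 9 with library weights, 2 with voom, 2 after the length and GC regression, and 0 to 7 when a library was left out. The cause of these shifts was not tested. Fits with a library left out also rest on fewer libraries.

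The other 9 had differences from -0.09 to 0.11 as reported. GCLM was -0.11 with library weights, -0.029 with voom, and -0.10 to 0.16 when a library was left out, below 0 without knockdown library 2, WT library 1 (-0.001) or WT library 3 (-0.09). GPX1 was -0.083 after the length and GC regression and -0.097 to 0.25 when a library was left out, below 0 without knockdown library 1, knockdown library 3 or WT library 1. HMOX1 was -0.037 after that regression and -0.013 to 0.068 when a library was left out, below 0 without WT library 2 or 3. GCLC ranged over -0.013 to 0.13, below 0 without knockdown library 2 or WT library 3. CAT ranged over -0.11 to 0.23, below 0 without WT library 3. NQO1 ranged over -0.22 to 0.0026, above 0 without WT library 3. SOD2 ranged over -0.085 to 0.055, above 0 without WT library 2. PRDX6 was -0.016 after quantile normalisation. GLRX2 was below 0 with median scaling, library weights (-0.022) or voom (-0.055), and without knockdown library 2 or 3 or WT library 1 (-0.079). Differences moved by over 1.5 times in at least 1 alternative for 27 of the 41. Among those whose sign held, PRDX4 was 0.059 and KEAP1 0.025 without WT library 3, GPX4 was 0.088 after the length and GC regression, GSR was 0.27 without WT library 1, and MGST2 was -0.54 with voom. Of the further genes, PGD was 0.33 and IDH2 0.39 without WT library 3, and MTHFD2 was 0.29 without knockdown library 3.

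The labels do not state if libraries with the same number form a pair, and they were not treated as pairs. Deviations from the group means of same-numbered libraries correlated at -0.005, -0.25 and 0.005 over genes. Those of libraries with different numbers correlated at -0.14 to 0.18. With 3 libraries per group such correlations cannot exclude a pairing. With the number as a block 1 redox gene and 1 gene of the further lists were called. MGST1 kept its call under the block, NFE2L1 had an adjusted p of 0.0521, and SESN3 was called in its place. Depth limits the weak genes most, GLRX with 49.1 to 129.5 normalised reads among them. The 95% intervals of the redox genes reach more than 0.2 to either side of the difference. After adjustment over all measured genes, differences of 0.44 for TXN and 0.67 for GSTA4 missed the threshold, so changes well above 0.2 can also go uncalled.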
